A study of Rattus norvegicus with 6 samples.

Results

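Hepatic cholesterol synthesis was followed through 5 clones, 1 each for Hmgcs1, Fdps, Fdft1, Sc5d and Insig1, out of 6240 clones on the array. The clones were chosen by their values on the wild type T3 arrays. For each gene, the clone was taken whose mean ratio of T3-treated over untreated wild type liver lay within 0.005 of the ratio that the study lists for that gene, and a gene with more than 1 such clone would have been dropped. All 5 genes had exactly 1 clone and were kept. The gene names are therefore inferred from equal ratios, since no table used here links clones to genes.

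The series holds 6 two-colour arrays of rat cDNA clones, hybridised with mouse liver RNA, 2 for each of 3 comparisons. The first sets hypothyroid TRβ-/- mice 2 h after T3 against untreated hypothyroid TRβ-/- mice. The second sets hypothyroid wild type mice 2 h after T3 against untreated hypothyroid wild type mice. The third sets untreated hypothyroid TRβ-/- mice against untreated hypothyroid wild type mice. All groups were thus hypothyroid. TRβ-/- mice lack thyroid hormone receptor β, the main receptor for the hormone in hepatocytes, and the study's methods do not describe their strain, age or the construction of the knockout. The wild type mice were males of 3 months of a hybrid strain, and their injection held 5 μg T3 together with 5 μg T4. RNA was pooled from 5 mice per the labels, although the labelling protocol gives 6, and no pool size is labelled for the TRβ-/- T3 arrays. The organism label reads rat. No untreated group with normal thyroid function and no vehicle injection were among the samples.

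Cholesterol is built from acetyl-CoA through mevalonate, farnesyl pyrophosphate and squalene, and most genes of the route are targets of the transcription factor SREBP2. SREBP precursors are held in the endoplasmic reticulum by SCAP and the Insig proteins while sterols are plentiful, and are carried to the Golgi and cleaved when sterols fall. Thyroid hormone is known to lower plasma cholesterol and to act on hepatic lipid synthesis. Hmgcs1 encodes the cytosolic HMG-CoA synthase, at the start of the mevalonate route. Fdps makes farnesyl pyrophosphate, and Fdft1 joins farnesyl units into squalene, which commits them to sterols. Sc5d introduces a double bond into the sterol ring late in the route. Insig1 is no enzyme but the retention protein named above, and is itself an SREBP target.

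The start regions of these genes are shown because the study asked whether SREBP sites lie near the starts of T3-induced genes. It reported more putative SREBP sites there than in unaffected genes. Of the 5 genes here, only Fdft1 is marked as part of that search. Of the 5 genes, 4 had a window of 300 bases in the RefSeq table of the rat build GRCr8, from 250 bases before the start that the table uses for each gene to 50 after it. For Sc5d and Fdps that start is the end of the annotated gene span, and for Hmgcs1 and Insig1 it lies inside the span. Fdft1, at chr15:41588114-41616168 in the same build, is named only. Capitals mark CCAAT, the box bound by NF-Y, and GGGCGG, the GC box, on either strand.
Hmgcs1, chr2:53382054-53382353, plus strand: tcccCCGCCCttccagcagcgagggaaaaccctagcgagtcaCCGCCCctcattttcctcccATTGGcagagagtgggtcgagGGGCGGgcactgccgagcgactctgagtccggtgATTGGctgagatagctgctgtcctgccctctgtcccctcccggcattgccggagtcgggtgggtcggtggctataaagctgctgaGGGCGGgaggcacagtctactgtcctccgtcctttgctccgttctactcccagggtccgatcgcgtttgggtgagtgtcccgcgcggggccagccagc
Fdps, chr2:176804767-176805066, minus strand: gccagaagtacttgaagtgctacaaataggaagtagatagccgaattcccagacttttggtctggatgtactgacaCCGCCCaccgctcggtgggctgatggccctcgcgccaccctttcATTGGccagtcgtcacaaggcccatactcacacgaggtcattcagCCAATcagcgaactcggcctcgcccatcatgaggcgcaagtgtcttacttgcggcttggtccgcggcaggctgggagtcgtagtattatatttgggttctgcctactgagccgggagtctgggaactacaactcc
Sc5d, chr8:51538228-51538527, minus strand: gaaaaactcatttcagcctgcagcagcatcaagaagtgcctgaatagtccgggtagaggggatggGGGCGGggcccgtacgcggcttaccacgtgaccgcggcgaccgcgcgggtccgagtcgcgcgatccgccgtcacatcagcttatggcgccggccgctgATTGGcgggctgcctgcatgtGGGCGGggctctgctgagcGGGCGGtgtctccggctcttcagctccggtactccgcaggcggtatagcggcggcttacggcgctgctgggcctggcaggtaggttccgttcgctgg
Insig1, chr4:8057720-8058019, minus strand: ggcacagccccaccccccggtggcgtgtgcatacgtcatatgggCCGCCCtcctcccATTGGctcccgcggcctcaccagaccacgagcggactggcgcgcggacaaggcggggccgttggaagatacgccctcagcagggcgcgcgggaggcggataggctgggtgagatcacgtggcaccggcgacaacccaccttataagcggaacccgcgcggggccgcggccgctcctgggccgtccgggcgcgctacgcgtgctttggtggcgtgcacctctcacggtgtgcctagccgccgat

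CCAAT was present in all 4 windows, against 37.5% of the 33469 rat windows of this length, and GGGCGG also in all 4, against 33.1%. Both occurred together in 11.8% of all windows. Hmgcs1 held 2 CCAAT boxes and 4 GC boxes, Fdps 2 and 1, Sc5d 1 and 3, and Insig1 1 and 1. The sterol regulatory element in the form TCACNCCAC was in none of the 4 windows and in 1.12% of all windows. Other forms of the element were not searched for, so its absence from the 4 windows is not shown. A direct repeat of AGGTCA with 4 bases between, the classical thyroid hormone response element, was also in none of them, and only 2 windows of the whole table held one. The letters were searched on both strands, no CCAAT overlapped a GC box in these windows, and the windows are rat sequence while the RNA was from mice. The study instead scored a binding matrix on sequence conserved between mouse and human, so a search for exact letters cannot check its result. The Hmgcs1 window lies wholly inside the annotated span of its gene.

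The direction of the wild type ratios follows from the rule. All 60 ratios taken from the study's list of T3-induced genes, which leaves out the rows named only as an EST, were met by at least 1 clone when the values were read as log2 of T3 over untreated, and 12 with the sign turned. Exactly 1 clone was found for 42 of them. Among ratios shifted by 0.02 to 0.1, 29.5% on average also found a clone, so a match is not by itself proof of identity. The clones of the 5 genes lay between 0.00016 (Insig1) and 0.0042 (Sc5d) from their ratio. The nearest other clone was 0.231 away for Hmgcs1, 0.0449 for Fdps, 0.0242 for Sc5d, 0.0137 for Insig1 and 0.0068 for Fdft1. Fdft1 is thus the least secure of the names, with 8 clones within 0.05 of its ratio, and Hmgcs1 the most secure, with 1.

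The direction of the other comparisons is not settled by the labels. On the wild type arrays the T3 pool is labelled as channel 2 both times, and the values run as channel 2 over channel 1. On the TRβ-/- T3 arrays the T3 sample is labelled as channel 1 on array 1 and channel 2 on array 2, and yet the arrays correlated at 0.703 (Pearson, across 1635 clones, which are not independent replicates). Both genotype arrays are labelled with TRβ-/- as channel 2, but the title of array 1 names wild type first. Dyes were swapped in the study, and whether the deposited ratios had already been turned is not stated. Values of these comparisons are given with the sign as deposited, and the words positive and negative refer to that sign. If the values run as on the wild type arrays, positive means higher with T3 on TRβ-/- array 2, and higher in TRβ-/- liver on the genotype arrays. Of the 23 other listed clones with values on both TRβ-/- T3 arrays, 19 were above 0 on both as deposited and 4 below 0. With the sign turned, most of these T3-induced genes would thus be lower with T3 in TRβ-/- liver. Which sign holds was not tested.

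Values on both arrays were held by 1635 clones for T3 in TRβ-/- mice, 3247 for T3 in wild type mice and 3095 for the genotype comparison, with array medians between -0.003 and 0.015 on the log2 scale. The arrays were unequally filled. Arrays 1 and 2 held 2270 and 1690 values for T3 in TRβ-/- mice, 3251 and 5686 for T3 in wild type mice, and 3222 and 3622 for the genotypes. The deposited ratios contain no intensities, so the level of a gene, its signal over background and liver marker genes could not be examined, and precision is limited by having 2 arrays a comparison. By the methods, the wild type arrays set 1 T3 pool against 1 untreated pool, and whether the arrays of each other comparison also repeat 1 pair of pools is not stated. All SDs and p-values below therefore measure the spread between hybridisations, not between animals. In whole liver, a change in the share of a cell type and a change in RNA per cell cannot be told apart.

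On the TRβ-/- T3 arrays all 5 clones were positive on both arrays, and Hmgcs1 and Insig1 passed the 2-fold rule of the study, which asks for log2 values beyond 1, or beyond -1, on each array. Hmgcs1 had log2 ratios of 2.19 and 1.97, a mean of 2.081 ± 0.157 (SD, n = 2 arrays) or 4.23-fold. Insig1 had 1.33 and 1.21, a mean of 1.27 ± 0.09 or 2.41-fold. None of the other 3 reached a log2 ratio of 1 on either array.

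Sc5d had 0.84 and 0.94 in TRβ-/- liver, a mean of 0.89 ± 0.07. Fdft1 reached 0.55 and 0.89, a mean of 0.72 ± 0.24, the widest spread of the 5 on these arrays. Fdps was lowest, at 0.40 and 0.64, with a mean of 0.52 ± 0.16. In the order of levels of change, the ranges of Hmgcs1, Insig1 and Sc5d did not overlap with one another. Those of Sc5d and Fdft1 did, as did those of Fdft1 and Fdps.

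By limma across 1635 clones, with Benjamini-Hochberg adjustment, Hmgcs1 (adjusted p = 0.011) and Insig1 (adjusted p = 0.025) differed from 0 on the TRβ-/- T3 arrays. The adjusted p was 0.052 for Sc5d, 0.11 for Fdft1 and 0.16 for Fdps. The 2 of 5 clones that passed the 2-fold rule compare with 2.81% of all clones with that sign, and the 2 called by limma with 43 of 1635 clones, or 2.63%, called with that sign. A positive sign on both arrays was held by 35.4% of all clones. With the spread estimated over all 6 arrays, the adjusted p became 0.0075 for Sc5d and 0.028 for Fdft1, which adds both to the calls. Among the 1635 clones ranked from the most positive mean, Hmgcs1 was number 20, Insig1 44, Sc5d 59, Fdft1 79 and Fdps 131. The median of the 5 clones was 0.89, against 0.02 over all clones and 1.20 over the 23 other listed clones. Of these 23, 12 were past 2-fold upward on each array and 1 downward. Both arrays were above 0 for 19 of the 23 and below 0 for 4. Passing the 2-fold rule was thus not particular to the 5 clones among the listed genes.

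On the wild type T3 arrays, whose mean chose the clones, all 5 passed 2-fold in favour of T3 on each array, a rule that 2.46% of the 3247 clones met, and nothing is read from that count. Log2 ratios were 2.486 and 3.053 for Hmgcs1, a mean of 2.77 ± 0.40 or 6.82-fold, with array 2 higher by more than for any other of the 5. Sc5d had 2.10 and 2.25 (mean 2.174 ± 0.101). Fdps had 2.02 and 1.95 (mean 1.98 ± 0.06). For Insig1 the values were 1.41 and 1.32 (mean 1.37 ± 0.07), and for Fdft1 they were 1.16 and 1.06 (mean 1.11 ± 0.07). Except for Hmgcs1, the arrays of a clone thus lay within 0.15 of each other.

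**Figure D1:**
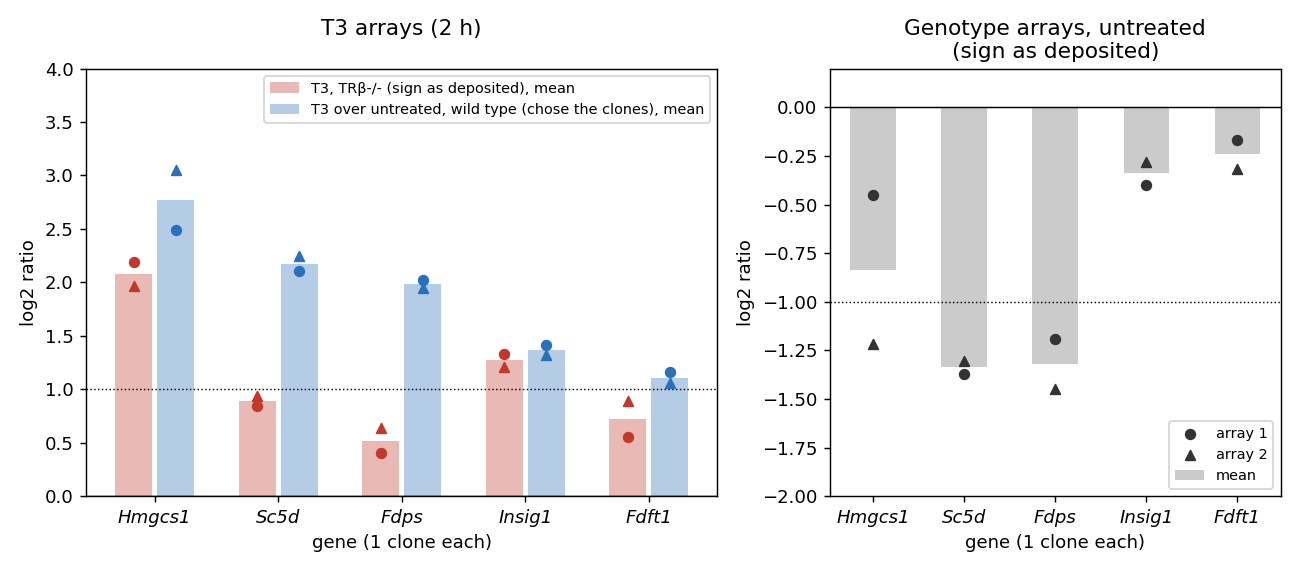
Log2 ratios of the 5 clones on each array (circles array 1, triangles array 2) with their mean (bars); the left panel shows T3 in TRβ-/- and in wild type liver, the right panel the genotype comparison, and dotted lines mark 2-fold. Insig1 lay at 1.27 in TRβ-/- and 1.37 in wild type liver, while Fdps lay at 0.52 and 1.98.

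Set side by side, the T3 ratios of the genotypes were nearly equal for Insig1 and far apart for Fdps and Sc5d. Insig1 averaged 1.27 in TRβ-/- and 1.37 in wild type liver, a difference of -0.10 as deposited, and its arrays overlapped. Hmgcs1 averaged 2.081 in TRβ-/- and 2.77 in wild type liver, a difference of -0.69. The difference was -0.39 for Fdft1, with 0.72 in TRβ-/- and 1.11 in wild type liver. It was larger in size for Sc5d, at -1.28 (0.89 in TRβ-/- and 2.174 in wild type liver). Fdps had the largest difference of the 5, at -1.46 (0.52 in TRβ-/- and 1.98 in wild type liver). For the 4 genes other than Insig1, both TRβ-/- arrays were below both wild type arrays. Of the 47 clones that were 2-fold higher on both wild type arrays and had all 4 values, 46.8% showed the same as deposited. With the TRβ-/- sign turned, all 5 genes and 100% of the 47 clones would, so the count says nothing of the 5 genes. The clones were picked for high wild type values, which by itself favours lower values elsewhere, so these differences were not tested. If the TRβ-/- ratios were turned in sign, the differences would run from -1.83 (Fdft1) to -4.85 (Hmgcs1).

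On the genotype arrays, which compared untreated TRβ-/- with untreated wild type liver, all 5 clones were negative on both arrays. Sc5d and Fdps passed the 2-fold rule, while Fdft1, whose enzyme acts between theirs in the route, did not. Sc5d had log2 ratios of -1.37 and -1.30, a mean of -1.34 ± 0.05 (SD, n = 2 arrays). Fdps had -1.19 and -1.45, a mean of -1.32 ± 0.18. As deposited these are ratios of 0.396 and 0.400.

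Hmgcs1 had -0.45 on array 1 and -1.22 on array 2, a mean of -0.83 ± 0.54, so that only array 2 was past 2-fold. Insig1 had -0.40 and -0.28 (mean -0.34 ± 0.08). Fdft1 had -0.17 and -0.32 (mean -0.24 ± 0.11). Sc5d and Fdps overlapped with each other, as did Insig1 and Fdft1, and the wide range of Hmgcs1 reached into that of Fdps.

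By limma across 3095 clones the adjusted p was 0.036 for Sc5d and 0.044 for Fdps, and the call of Fdps was lost when arrays were centred and scaled (adjusted p = 0.055). It was 0.28 for Hmgcs1, 0.52 for Insig1 and 0.68 for Fdft1. The 2 of 5 clones past the 2-fold rule with a negative sign compare with 0.485% of all clones, the 2 called by limma with 11 of 3095 clones, or 0.355%, called with that sign, and a negative sign on both arrays was held by 28.1%. Counted from the most negative mean, Sc5d was number 14 and Fdps 15 of 3095 clones, followed by Hmgcs1 at 31, Insig1 at 206 and Fdft1 at 413. The median of the 5 was -0.83, against -0.01 over all clones, but -0.45 on array 1 and -1.22 on array 2, as Hmgcs1 was the median clone. The untreated wild type pool may have been the same as on the wild type T3 arrays that chose the clones, and what this adds to the genotype ratios was not tested.

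**Figure D2:**
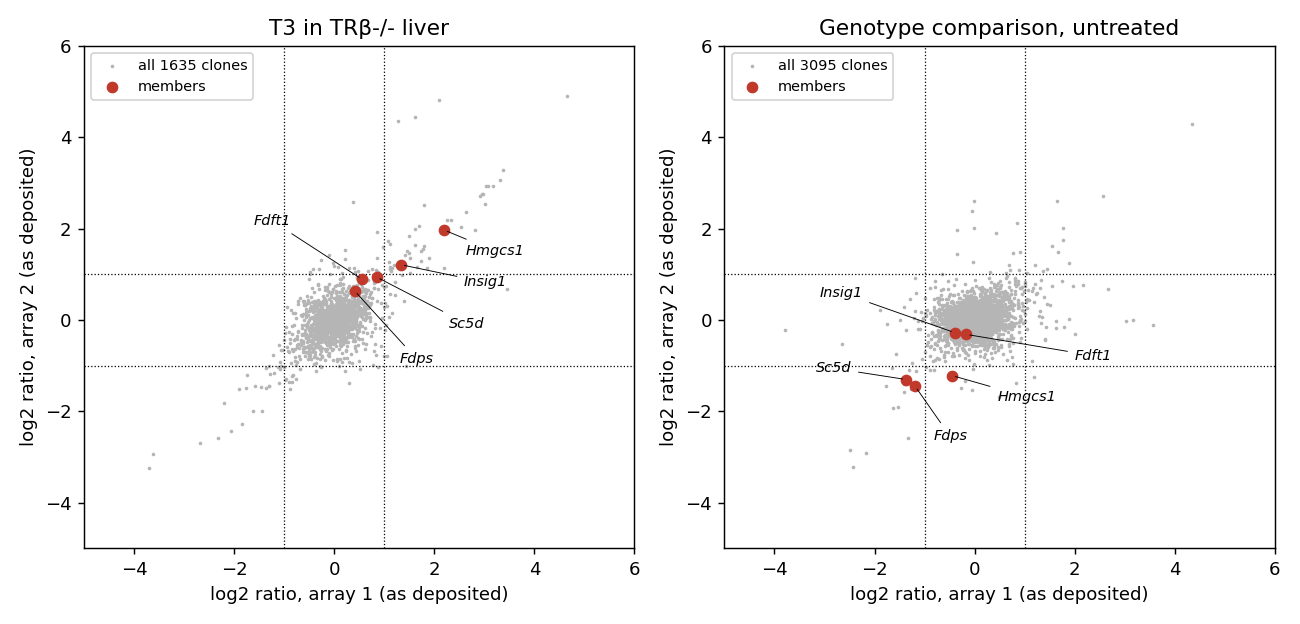
Log2 ratio on array 1 (x axis) against array 2 (y axis) as deposited, for all clones with both values (grey) and the 5 clones (red); dotted lines mark 2-fold. Hmgcs1 and Insig1 lie past 2-fold on both arrays for T3 in TRβ-/- liver, and Sc5d and Fdps on both genotype arrays.

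Likeness between clones is given as a description, since it draws in part on the values that chose them. It was measured as the Euclidean distance between the 6 log2 ratios, 2 of them the wild type values used for the choice, among 1619 clones with all 6. Sc5d and Fdps were the closest pair, at 0.66. Insig1 and Fdft1 followed at 0.95, and Hmgcs1 was 2.13 or more from each of the others. Fdps was the nearest of all clones to Sc5d. The clone nearest to Hmgcs1 was that of Me1, malic enzyme 1, which supplies NADPH for lipid synthesis, at a distance of 1.49. Nearest to Insig1 was the clone matched to the sigma 1 opioid receptor, at 0.39, and then that of cysteine-sulfinate decarboxylase, a taurine synthesis enzyme, at 0.50. The 3 clones nearest to Fdft1 had no name, the closest being RGIAM73 at 0.22. Over the 4 arrays without wild type T3, a measure added after seeing the data, Sc5d and Fdps were again the closest pair (0.58), followed by Insig1 and Fdft1 (0.87). Hmgcs1 was then 1.49 or more from each of the others, and its nearest clone was that of fatty acid elongase 1 (1.24) and not of Me1. An unnamed clone, RGIAE80, was then nearer to Sc5d (0.52) than Fdps was, and the unnamed RGIAT26 was nearest to Insig1 (0.27).

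Other genes of the route could be read only where the study lists them. Lss, which cyclises squalene epoxide to lanosterol, had 1.430 and 2.008 on the wild type T3 arrays, -0.31 on genotype array 2, and no value on the remaining arrays. A second clone matched to Hmgcs1 had 1.31 and 1.74 on the wild type T3 arrays, below the 2.486 and 3.053 of the first, and no value elsewhere. The row similar to an NAD(P)H steroid dehydrogenase met 2 clones and was not assigned. RNACD81 had 1.90 and 1.36 on the TRβ-/- T3 arrays and -0.29 and 0.07 on the genotype arrays. RNABL71 had no values on the TRβ-/- T3 arrays, and -1.65 and -1.05 on the genotype arrays.

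Beside the 5 clones, the lists of lipogenic and fatty acid oxidation genes were matched by the same rule, and all of these genes were listed by the study for a rise on the same wild type arrays. On the TRβ-/- T3 arrays the lipogenic clones had a median of 0.87 (7 clones with values), close to the 0.89 of the cholesterol clones and Insig1, but a wider range, from -1.38 to 2.15. Me1 had 1.783 and 2.512. Thrsp, a regulator of lipogenesis, had -1.32 and -1.45, and Fasn, fatty acid synthase, had -0.25 and -0.06. By limma Thrsp differed from 0 (adjusted p = 0.020) and Fasn did not pass the test (adjusted p = 0.58). The sign of Thrsp was thus opposite to that of all 5 clones of the cholesterol group on the same arrays, whichever way the ratios run. Like those 5, 5 of the 7 lipogenic clones were positive on both arrays, and 3 passed 2-fold with that sign. Cyp4a3, a fatty acid hydroxylase, had 4.66 and 4.91, the most positive mean of all 1635 clones.

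On the genotype arrays 7 of 8 lipogenic clones were negative on both arrays, with a median of -0.71, and Me1, Thrsp and Fasn passed the 2-fold rule. The fatty acid oxidation clones with both values were of the other sign. Cyp4a3 had 1.76 and 1.74 and Acot1, an acyl-CoA thioesterase, had 1.67 and 1.48, while Ech1, an enoyl-CoA hydratase family member, had 0.18 and 0.47. Over the 29 listed clones other than the 5 with a unique match and both values, 16 were negative and 9 positive on both arrays. Of these 29, 5 passed the 2-fold rule with a negative and 2 with a positive sign, and the median of the 29 was -0.26. The differences between these lists were not tested.

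Markers of blood cells could be read only where the study lists them as raised on the wild type T3 arrays. Their wild type values were thus high by choice, and markers that did not rise could not appear. Of 4 erythroid rows, 2 had 1 clone with both values in TRβ-/- liver. Hbb, β-globin, had 3.075 and 2.926 in TRβ-/- and 2.121 and 1.969 in wild type liver on the T3 arrays, and the row similar to α-globin had 2.92 and 2.71 in TRβ-/- and 1.87 and 1.48 in wild type liver. On the genotype arrays these clones lay at 0.42 and 0.35 on average, opposite in sign to the 5 clones. Hbb-y had no value on the TRβ-/- T3 arrays, and Hba1 met 2 clones, both past 2-fold in TRβ-/- liver on both arrays. Of 2 leukocyte rows, 1 had a unique clone, at 0.78 on TRβ-/- array 1 alone and 1.873 and 2.883 in wild type liver. Padi4, expressed in granulocytes, met 2 clones, with 3.38 and 3.28 for the first and 3.037 and 2.927 for the second in TRβ-/- liver, against 1.75 and 1.94 and 2.038 and 1.650 in wild type liver. Neither adipocyte row had a unique clone. The part of these cells in the ratios of the 5 genes was not tested.

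**Figure D3:**
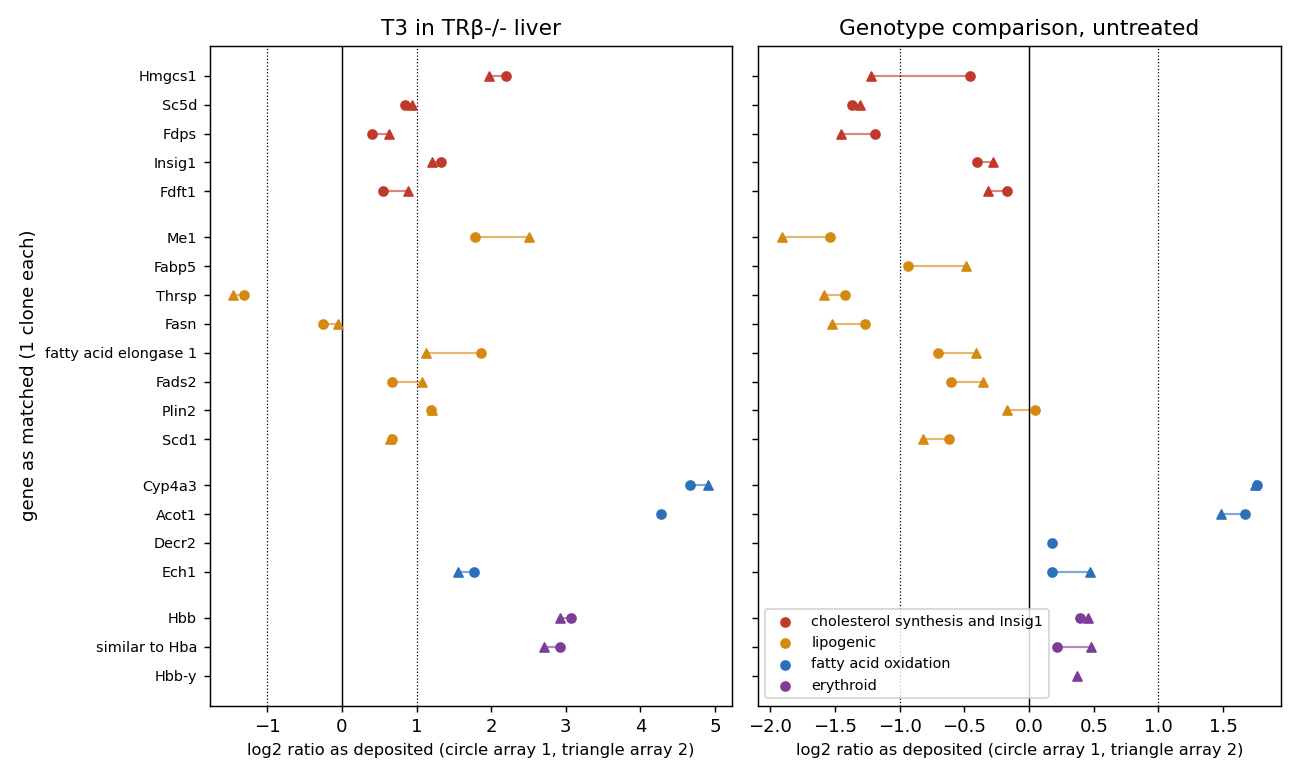
Log2 ratios as deposited (x axis; circles array 1, triangles array 2) of the 5 clones and of other listed genes with a unique clone (rows), for T3 in TRβ-/- liver (left) and the genotype comparison (right); the panels have different scales and dotted lines mark 2-fold. The 5 clones share the sign of Me1 in both panels, and Thrsp and Fasn differ from them in sign on the left only.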

How the data were processed

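Liver RNA was compared on 6 two-colour arrays. The authors read the spots with GenePix Pro, removed those under 2 times their background, subtracted the local background and applied Lowess normalization with SMA, and deposited log2 ratios. No source used here gives the versions of these tools. Groups were taken from the channel labels. The 5 clones were found by the ratio rule given in the report, as were clones of the other listed genes. Only unique matches entered the counts and medians over lists, and rows that met 2 clones were left out or described through both clones. Rows of the study's list with no gene name beyond EST were not used here. The study's cutoff, a log2 ratio of 1 in size on both arrays, gave the calls. The TRβ-/- T3 and genotype ratios were also tested against 0 with limma 3.58.1 (R 4.3.3), fitted over all clones with both values and adjusted by Benjamini-Hochberg, with calls at an adjusted p under 0.05. No test was run on the wild type T3 ratios. Limma and the cutoff were tested on simulated data. Promoter windows came from RefSeq (GRCr8). All genes named follow from a fixed list: the members, the listed genes of related pathways and blood or fat cells, and the 3 clones nearest to each member. Members and lists were chosen with earlier results of these data known. Alternatives were other cutoffs, the mean of the arrays, centring, scaling, single arrays, a wider match and a shared spread. Python 3.11.15, numpy 2.4.6, pandas 2.3.3 and matplotlib 3.10.9 were used.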

Additional observations from a re-analysis of the deposited data

Results flagged for a closer look

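Thrsp and Fasn were positive on both wild type T3 arrays and negative, as deposited, on both TRβ-/- T3 arrays. The mean log2 ratio of Thrsp was -1.38 in TRβ-/- and 2.508 in wild type liver, and that of Fasn was -0.16 in TRβ-/- and 1.83 in wild type liver. In TRβ-/- liver Fasn did not pass limma's test against 0 (adjusted p = 0.58). The differences were not tested. None of the 5 cholesterol clones did this as deposited; if the TRβ-/- ratios were turned in sign, all 5 would, while Thrsp and Fasn would not.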

How the results depend on the processing

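The largest dependence is on the direction of the TRβ-/- T3 and genotype arrays. With the sign turned, the T3 ratios in TRβ-/- liver were -2.081 (Hmgcs1), -0.89 (Sc5d), -0.52 (Fdps), -1.27 (Insig1) and -0.72 (Fdft1), and the genotype ratios 0.83, 1.34, 1.32, 0.34 and 0.24 in the same order. With a 3-fold cutoff, 1 clone passed for T3 in TRβ-/- liver, 3 for T3 in wild type liver and 0 for the genotypes, in place of 2, 5 and 2. On single arrays these counts ran from 2 to 2, 5 to 5 and 2 to 3, and the median of the genotype ratios from -1.22 to -0.45. A 1.5-fold cutoff raised the count for T3 in TRβ-/- liver from 2 to 3. Centring and scaling together lowered the count for T3 in wild type liver from 5 to 4. Otherwise a 1.5-fold cutoff, the mean of the arrays, centring and scaling changed no count of members. A match within 0.01 met 3 clones for Fdft1, which was then dropped. Scaling took the adjusted p of Fdps between genotypes to 0.055, and the shared spread over 6 arrays added Sc5d and Fdft1 to the calls for T3 in TRβ-/- liver. No paired analysis was possible because each comparison is a ratio within an array and no test between groups of arrays was run. With 2 hybridisations a comparison and no intensities, signal over background could not be examined.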

Other observations

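Several clones without a name lay close to Sc5d and Fdps over the 6 arrays. RGIAE80, the clone nearest to Fdps (distance 0.50), had 0.49 and 0.67 for T3 in TRβ-/- liver, 1.79 and 1.66 for T3 in wild type liver and -1.17 and -1.13 between genotypes. RNABJ25, whose wild type ratio was next to that of Sc5d, had 0.18 and 0.19 for T3 in TRβ-/- liver, 2.27 and 2.06 for T3 in wild type liver and -1.31 and -1.10 between genotypes. The clone next to Insig1 in wild type ratio, RNACB93, differed from it, with 0.07 and 1.17 for T3 in TRβ-/- liver and -0.59 and -0.90 between genotypes. RGIAU16, next to Fdft1, had 0.11 on TRβ-/- array 1 and -0.75 and -0.84 between genotypes, against -0.17 and -0.32 for the clone taken as Fdft1.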
